A study of Mus musculus with 13 samples.

Results

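The genes described here are 9 genes of T cell quiescence, thymic egress and survival: the KLF transcription factors Klf2, Klf3, Klf6 and Klf13, the sphingosine-1-phosphate (S1P) receptors S1pr1 and S1pr4, the transcription factor Foxo1, the interleukin-7 receptor alpha chain gene Il7r, and Cd69. They were chosen by name, as 9 of the 35906 genes with at least 1 transcript in the deposited tables, and the level of each gene was the sum over its transcripts. Expression was measured by RNA sequencing of CD4 single-positive (CD4SP) thymocytes sorted at the M2 stage (CD69- MHCI+), the most mature thymic stage, with 1 library per mouse. Levels are given as CPM, estimated counts relative to the library size after TMM scaling, and, to compare genes with each other, as the authors' TPM, which also account for transcript length.

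All 13 mice, adults of both sexes, were C57BL/6J mice that carried the Lm54 T cell receptor transgene on a Rag1-/- background, so that their T cells expressed 1 receptor, specific for a listeriolysin O (LLO) peptide on I-Ab. The CtslΔTEC mice lacked cathepsin L, a protease of the MHC class II pathway, in thymic epithelial cells, because a conditional Ctsl allele was deleted there by Foxn1-cre. The control mice are Ctsl fl/fl (WT) in the labels. Unstimulated cells came from 5 CtslΔTEC mice (mice 1 to 5) and 4 control mice (mice 1 to 4). Stimulated cells came from 2 CtslΔTEC mice (numbered 6 and 7) and 2 control mice (numbered 5 and 6), and were cultured for 4 h in serum-free medium with 250 ng/ml soluble anti-CD28 and 1 µg/ml plate-bound LLO:I-Ab monomer. Cells cultured without stimulus were not analysed here, and all 4 stimulated libraries share 1 date in their file names (date C), so stimulation, culture and that date cannot be told apart. The unstimulated libraries carry 2 other dates, date A for CtslΔTEC mice 1 and 3 and control mouse 4, and date B for the other 6. What these dates stand for is not given in the sources used here. Mouse numbers are those of the sample titles, and for several libraries they differ from the animal numbers in the file names.

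In GRCm38 (GENCODE M21) the genes, all protein-coding, were placed as follows. The KLF genes are at chr8:72319033-72321656 (Klf2, plus strand), chr5:64803388-64832901 (Klf3, plus), chr13:5861482-5870394 (Klf6, plus) and chr7:63886351-63938915 (Klf13, minus). S1pr1 is at chr3:115710433-115715072 (minus), S1pr4 at chr10:81497747-81500132 (minus) and Foxo1 at chr3:52268336-52353221 (plus). Cd69 is at chr6:129267325-129275436 (minus) and Il7r at chr15:9505788-9530176 (minus).

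KLF2 is a zinc-finger transcription factor that keeps naive T cells quiescent and drives S1pr1, the receptor through which mature thymocytes sense the S1P of the blood and leave the thymus. FOXO1, held out of the nucleus by PI3K and AKT signalling, acts upstream of Klf2 and directly on Il7r and on the lymph node homing receptors. CD69 is induced by T cell receptor signalling, binds S1PR1 on the same cell and removes it from the surface, so that CD69 loss and S1PR1 gain mark the cells ready to leave.

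RefSeq promoter windows (GRCm38.p6, from 250 bases before to 50 bases after a gene start) were matched for 7 of the 9 genes. They were searched on both strands for the forkhead letters GTAAACA and for the KLF letters CACCC. The 3 windows printed belong to a transcription factor, an S1P receptor and a cytokine receptor whose RNA was lower in unstimulated CtslΔTEC cells, with matches in capitals and each sequence 5′ to 3′ on the strand of the gene. Klf2 lies on the plus strand (chr8:72318812-72319111), S1pr4 on the minus strand (chr10:81500088-81500387) and Il7r on the minus strand (chr15:9529827-9530126).
Klf2: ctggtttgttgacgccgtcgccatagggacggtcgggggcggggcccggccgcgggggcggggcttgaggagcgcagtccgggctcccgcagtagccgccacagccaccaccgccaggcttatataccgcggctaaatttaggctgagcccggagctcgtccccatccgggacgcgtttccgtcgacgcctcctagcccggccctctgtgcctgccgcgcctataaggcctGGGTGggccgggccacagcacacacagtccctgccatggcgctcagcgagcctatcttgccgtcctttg
S1pr4: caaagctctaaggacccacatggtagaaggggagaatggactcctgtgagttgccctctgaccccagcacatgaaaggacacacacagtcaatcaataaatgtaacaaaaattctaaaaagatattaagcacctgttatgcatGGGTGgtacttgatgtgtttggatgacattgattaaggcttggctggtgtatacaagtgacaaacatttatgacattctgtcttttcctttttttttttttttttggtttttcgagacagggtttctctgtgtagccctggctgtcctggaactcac
Il7r: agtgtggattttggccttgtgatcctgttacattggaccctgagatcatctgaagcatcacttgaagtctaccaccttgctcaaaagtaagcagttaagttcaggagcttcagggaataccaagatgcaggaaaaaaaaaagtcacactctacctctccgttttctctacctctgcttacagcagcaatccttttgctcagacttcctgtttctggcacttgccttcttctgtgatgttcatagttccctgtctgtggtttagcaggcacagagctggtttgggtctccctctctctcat
The capitals mark CACCC read on the opposite strand. The Klf2 window held 1 match, at positions -19 to -15 from the start, and the S1pr4 window held 1, at positions -107 to -103. The Il7r window held none. CACCC was present in 4 of the 7 windows and in 57.5% of 32817 RefSeq promoter windows of the same length, and GTAAACA in 0 of the 7 and in 3.65% of all. These matches describe letters only.

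Library totals ran from 25692380 to 39127833 estimated counts in unstimulated and from 8085463 to 27184520 in stimulated cells. CD4 T cell markers summed to 3555 to 3995 CPM in the unstimulated libraries, with Cd4 at 1004 to 1053 CPM in CtslΔTEC against 1128 to 1156 CPM in control mice and Cd5 at 144 to 184 against 273 to 401 CPM, and the B cell markers to at most 1.54 CPM. Of 6 thymic epithelial markers, 4 (Krt5, Krt8, Foxn1 and Aire) stayed under 1 CPM in every library, and Epcam and Psmb11 were at 1.31 to 12.9 and 1.11 to 2.74 CPM. Ctsl itself was at 11.4 to 17.9 CPM in unstimulated CtslΔTEC against 6.32 to 8.84 CPM in unstimulated control cells, higher without overlap. In stimulated cells it was at 6.165 to 6.70 against 3.30 to 6.65 CPM. These values check nothing, as the deletion is in epithelial cells that were not sequenced. RNA of Rag1, the gene disrupted in all mice, was at 4.51 to 26.5 CPM in unstimulated CtslΔTEC and 2.78 to 5.13 CPM in unstimulated control cells. These ranges overlapped (log2 fold change 1.815 ± 0.481, edgeR adjusted p = 0.0332), and what this RNA stands for was not tested. Of 6 double-positive (DP) thymocyte markers, 5 were higher in every unstimulated CtslΔTEC library than in every control library, and the list summed to 223 to 281 CPM against 53.9 to 76.0 CPM. Ptcra, the other DP marker, was under 1 CPM in every library. The CD8 lineage list, which shares Cd8a and Cd8b1 with it, summed to 226 to 266 against 117 to 138 CPM, but among its other members Runx3 was at 69.9 to 82.3 against 81.0 to 95.8 CPM and Nkg7 at 0.24 to 0.62 against 1.68 to 2.47 CPM. The regulatory T cell list summed to 20.8 to 25.6 against 5.96 to 13.8 CPM, with Il2ra and Ctla4 higher without overlap and Foxp3 at 0.61 to 1.15 CPM over both. The NKT and gamma delta T cell list summed to 193 to 261 against 145 to 178 CPM, nearly all of it Trdc, while its member Sox13 was lower without overlap (1.17 to 2.10 against 4.73 to 7.69 CPM). The thymic epithelial list summed to 3.55 to 5.34 against 2.85 to 3.43 CPM. The semimature thymocyte list overlapped (486.5 to 545 against 530 to 653 CPM), but within it Ccr9 was higher (162 to 204 against 77.9 to 108 CPM) and Itm2a lower (138 to 192 against 251 to 348.5 CPM) without overlap. The part of these shifts in the results was not tested, and in bulk samples fewer cells of a type and less RNA per cell cannot be told apart. The Y-linked gene Ddx3y was at 125 to 206 CPM in all 5 unstimulated CtslΔTEC mice and at 161 CPM in control mouse 3, but under 0.06 CPM in control mice 1, 2 and 4, so sex and genotype were nearly aligned in the unstimulated cells. In the stimulated cells 1 mouse of each genotype (CtslΔTEC mouse 7 and control mouse 6) had it, at 242 and 190 CPM.

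The first question was whether mature thymocytes selected on cathepsin L-deficient epithelium differ in this program before any stimulus. In unstimulated cells 6 of the 9 genes were lower in CtslΔTEC than in control mice and 0 were higher at an adjusted p under 0.1 (edgeR quasi-likelihood test, Benjamini-Hochberg over 13152 genes). Among all genes tested, 8.36% were lower and 6.42% higher. The 6 genes were Il7r, Klf2, S1pr1, S1pr4, Foxo1 and Klf3, and Klf6, Klf13 and Cd69 did not pass. The median log2 fold change of the 9 genes was -0.46, beside 0.01 over all genes.

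**Figure D1:**
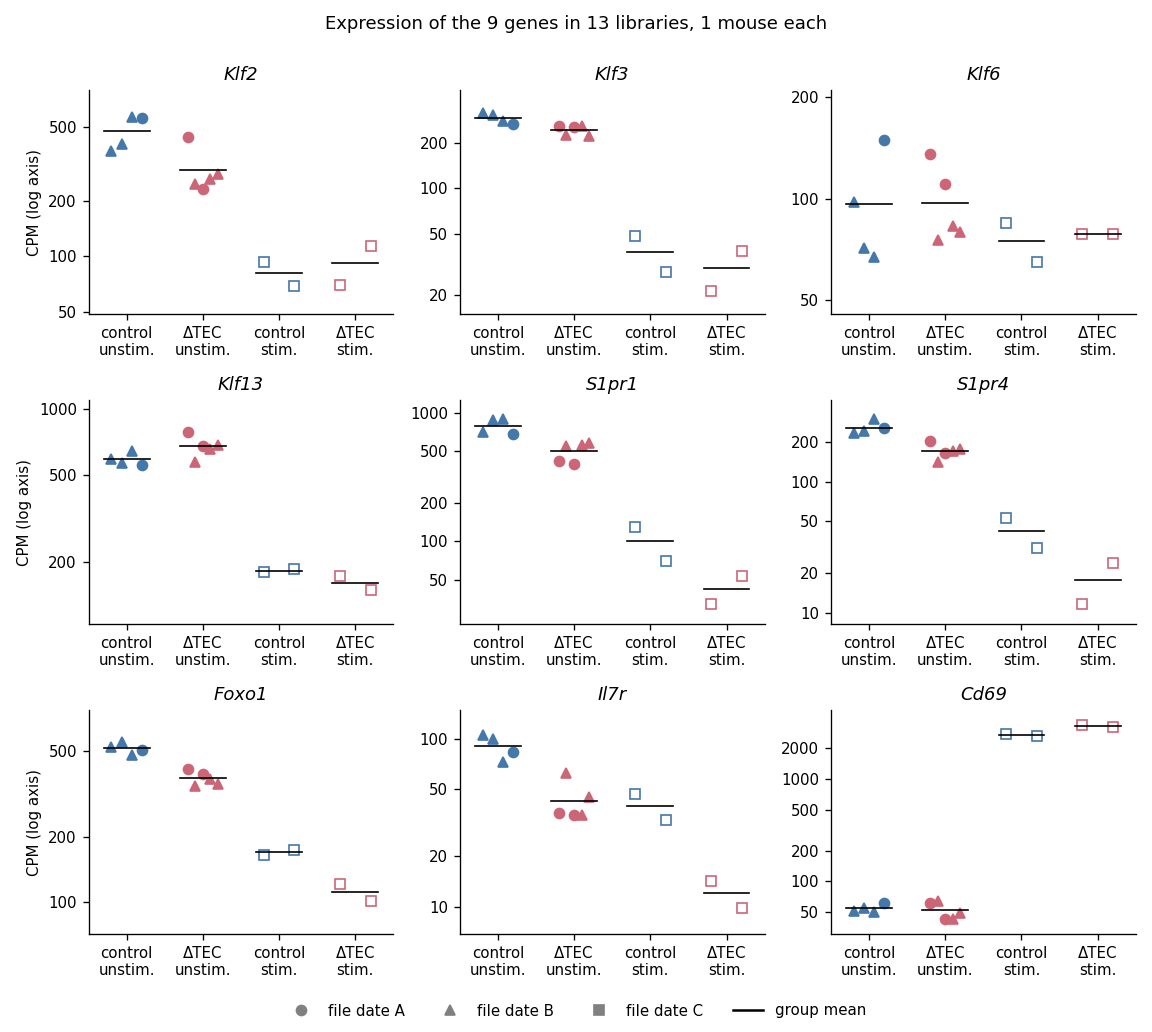
CPM (log axis) of each of the 9 genes by group, with 1 point per mouse, filled for unstimulated and open for stimulated cells, marker shapes for the file-name date (A circles, B triangles, C squares) and a line at the group mean. S1pr1, S1pr4, Foxo1, Il7r and Klf3 separate the unstimulated genotypes without overlap, and 7 genes fell and Cd69 rose in stimulated cells.

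Klf2 was the most abundant of the 9 genes per length in unstimulated control cells, at 388 ± 79.7 TPM (SD, n = 4), with S1pr1 next at 363 ± 50.4 TPM. The ranges of these 2 overlapped. The order by mean TPM went on with S1pr4, Klf13, Klf3, Foxo1, Cd69, Il7r and Klf6, and neighbours overlapped only for Cd69 with Il7r and Il7r with Klf6. In CtslΔTEC cells Klf2 (245 ± 69.9 TPM, n = 5) and S1pr1 (238 ± 37.0 TPM) again led and overlapped, Klf13 came next, and Il7r was last at 19.3 ± 4.85 TPM.

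Klf2 was at 374, 408, 568 and 562 CPM in control mice 1 to 4. In CtslΔTEC mice 1 to 5 it was at 442, 247, 231, 263 and 279.5 CPM. The groups overlapped through CtslΔTEC mouse 1, which lay above control mice 1 and 2, while the other 4 CtslΔTEC mice lay below every control mouse. Klf2 RNA was 1.63-fold lower (log2 fold change -0.71 ± 0.19 SE, edgeR adjusted p = 0.0372). Without control mouse 3 the adjusted p was 0.108 in edgeR. Without CtslΔTEC mouse 1 the log2 fold change was -0.90 (edgeR adjusted p = 0.00143).

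Klf3 encodes a KLF factor that mostly represses transcription and is itself a KLF target in other lineages. It was at 314, 304, 278 and 265 CPM in control mice 1 to 4 and at 256, 224, 252, 258 and 222 CPM in CtslΔTEC mice 1 to 5. The groups did not overlap, but control mouse 4 was the lowest of the controls, just above CtslΔTEC mouse 4. The difference was the smallest of the 6 (1.20-fold lower, log2 fold change -0.26 ± 0.08, edgeR adjusted p = 0.0518), and it lost its call in 11 of 25 alternatives, among them an offset for transcript length (edgeR adjusted p = 0.408).

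Klf6, an immediate-early KLF factor, had similar group means, 96.5 ± 37.8 CPM in control and 96.8 ± 25.6 CPM in CtslΔTEC cells. Its 3 libraries of date A were its 3 highest, control mouse 4 at 149 CPM and CtslΔTEC mice 1 and 3 at 136 and 110 CPM, against 67.1 to 98.0 CPM in the 6 of date B. Klf13, a factor of chemokine expression in T cells, was at 556 to 642 CPM in control and 573 to 782 CPM in CtslΔTEC cells. These ranges overlapped, and the log2 fold change of 0.20 ± 0.09 did not pass (edgeR adjusted p = 0.195). It passed without CtslΔTEC mouse 2 (edgeR adjusted p = 0.0774).

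S1pr1, the egress receptor, was at 702, 875.5, 893 and 687 CPM in control mice 1 to 4. In CtslΔTEC mice 1 to 5 it was at 420, 550.5, 396, 556.5 and 584 CPM. Every CtslΔTEC mouse lay below every control mouse, and the 2 CtslΔTEC mice of date A were the lowest. S1pr1 was 1.57-fold lower (log2 fold change -0.65 ± 0.13, edgeR adjusted p = 0.00746).

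S1pr4 encodes a second S1P receptor of lymphocytes, linked to migration and cytokine secretion rather than to egress itself. It was at 238, 244, 299 and 258 CPM in control mice 1 to 4 and at 205, 142, 165, 171 and 176.5 CPM in CtslΔTEC mice 1 to 5. The groups did not overlap, and S1pr4 was 1.505-fold lower (log2 fold change -0.59 ± 0.10, edgeR adjusted p = 0.00346).

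Foxo1 was at 520, 553, 482 and 505.5 CPM in control mice 1 to 4 and at 413, 345, 391.5, 371 and 351 CPM in CtslΔTEC mice 1 to 5. The spread within each genotype was narrow (SD 29.7 and 28.2 CPM) and the groups did not overlap. Foxo1 was 1.37-fold lower (log2 fold change -0.46 ± 0.07, edgeR adjusted p = 0.00167). Il7r, which encodes the receptor chain through which IL-7 sustains T cells, was at 105.5, 100.2, 72.5 and 83.5 CPM in control mice 1 to 4. It was at 36.0, 62.2, 35.3, 35.1 and 44.8 CPM in CtslΔTEC mice 1 to 5. The highest CtslΔTEC mouse lay below the lowest control mouse, and Il7r was 2.12-fold lower, the largest difference of the 9 genes (log2 fold change -1.08 ± 0.17, edgeR adjusted p = 0.00194).

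Cd69 RNA was at 52.0, 55.1, 49.7 and 61.0 CPM in control mice 1 to 4 and at 61.8, 64.9, 43.4, 43.3 and 49.0 CPM in CtslΔTEC mice 1 to 5. The groups overlapped throughout (log2 fold change -0.05 ± 0.13, edgeR adjusted p = 0.865). The cells had been gated as negative for CD69 protein in both genotypes, so this comparison holds within that gate.

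The file-name dates and the Y-linked genes were set beside these differences. With the date as a factor, and in date B alone (3 against 3 mice), the same 6 genes were called in edgeR. With the mean level of the Y-linked genes as a covariate the count fell from 6 to 2, S1pr1 (edgeR adjusted p = 0.0688) and S1pr4 (edgeR adjusted p = 0.0291). Klf2, Klf3, Foxo1 and Il7r then had log2 fold changes of -0.90, -0.195, -0.35 and -0.79 with edgeR adjusted p from 0.210 to 0.643. Control mouse 3, the control with Ddx3y, lay above all 5 CtslΔTEC mice in each of the 6 genes. It was also the lowest control for Foxo1 and Il7r, next to the lowest for Klf3, and the highest for Klf2, S1pr1 and S1pr4.

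The second comparison asked how the genotypes differed after 4 h of stimulation. Lower RNA in CtslΔTEC cells was found for 4 of the 9 genes, Il7r, S1pr1, S1pr4 and Foxo1, and higher RNA for 0, beside 10.6% lower and 2.77% higher of 14241 genes tested (edgeR, a model of all 13 libraries). The median log2 fold change of the 9 genes was -0.31, beside -0.055 over all genes. With 2 mice per genotype, the spread rests on all 4 groups. Beside these differences the DP list summed to 54.1 to 55.0 CPM in stimulated CtslΔTEC against 16.0 to 19.2 CPM in control cells, with Cd8a, Cd8b1 and Arpp21 higher and Dntt and Aqp11 overlapping. The CD8 lineage list, through the shared Cd8a and Cd8b1, summed to 54.7 to 60.1 against 32.8 to 34.7 CPM, but its member Runx3 was lower without overlap (7.34 to 9.84 against 19.4 to 22.3 CPM). The semimature list summed to 5790 to 5793 against 5264 to 5505 CPM. Within it Nab2 (899 to 989 against 438.5 to 563 CPM), Ccr9 and Cd24a were higher, Itm2a, most of the sum, overlapped (4433 to 4619 against 4471 to 4884 CPM), and Tnfrsf4 was lower (21.4 to 27.1 against 44.0 to 49.5 CPM). The NKT and gamma delta list was at 187 to 189 against 167 to 179 CPM through Trdc, while Sox13 was lower (0.76 to 0.99 against 7.57 to 7.81 CPM). The regulatory T cell list (785 to 824 against 691 to 742 CPM), nearly all of it Il2ra, and the thymic epithelial list (13.8 to 15.7 against 11.2 to 13.4), mostly Epcam, were also higher. The myeloid list (7.23 to 8.67 against 10.9 to 24.7 CPM) was lower through Itgax (0.45 to 1.08 against 6.22 to 15.4 CPM), and the endothelial list (43.4 to 46.2 against 57.2 to 73.5) through Pecam1. The CD4 T cell list overlapped (4917 to 5171 against 4751 to 5266 CPM). Within it Cd3e (601 to 649 against 431 to 579 CPM), Lck (1163 to 1171 against 892 to 1037 CPM) and Trac (970 to 1073 against 885 to 921 CPM) were higher without overlap. Cd5 was lower (1390 to 1509 against 1762 to 1798 CPM), and Cd4 overlapped. The part of these shifts was not tested.

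**Figure D2:**
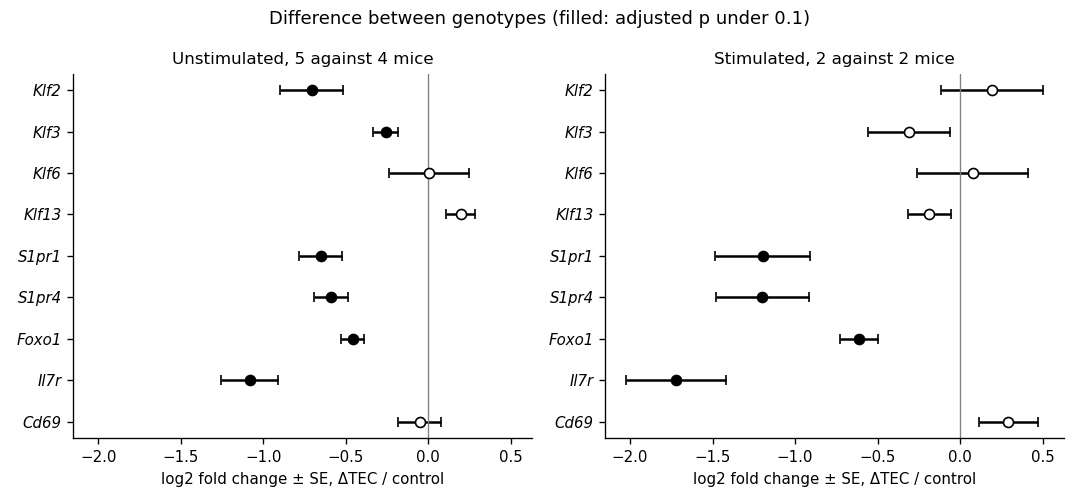
Log2 fold change of CtslΔTEC against control cells (horizontal axis, points with SE bars) for the 9 genes in unstimulated (left) and stimulated cells (right), filled where the edgeR adjusted p is under 0.1. S1pr1, S1pr4, Foxo1 and Il7r lie left of 0 and filled in both panels, and Klf2 and Klf3 are filled in unstimulated cells.

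Il7r was at 47.0 and 32.8 CPM in stimulated control mice 5 and 6 and at 14.3 and 9.81 CPM in CtslΔTEC mice 6 and 7. These values did not overlap, and Il7r was 3.30-fold lower (log2 fold change -1.72 ± 0.30, edgeR adjusted p = 0.00296), again the largest difference of the 9 genes in size. Foxo1 was at 166 and 173 CPM in control and 121 and 101 CPM in CtslΔTEC cells, with no overlap and a 1.53-fold lower level (log2 fold change -0.61 ± 0.12, edgeR adjusted p = 0.0047). Both calls held in all 16 alternatives of this comparison, with edgeR or DESeq2 adjusted p up to 0.0551 for Foxo1 and 0.0396 for Il7r.

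S1pr1 was at 129.7 and 69.9 CPM in stimulated control mice 5 and 6 and at 32.3 and 53.7 CPM in CtslΔTEC mice 6 and 7. S1pr4 was at 52.65 and 31.5 CPM in these control mice and at 11.65 and 23.9 CPM in these CtslΔTEC mice. Neither gene overlapped between genotypes, but the replicates of each genotype differed by more than they had in unstimulated cells, with coefficients of variation of 35.1 to 48.7% against 10.7 to 17.2%. The levels were 2.29-fold lower for both (log2 fold change -1.195 ± 0.288 for S1pr1, edgeR adjusted p = 0.0177, and -1.20 ± 0.28 for S1pr4, edgeR adjusted p = 0.0154). Both calls were lost without control mouse 5 (edgeR adjusted p = 0.233 and 0.168) and without CtslΔTEC mouse 6 (0.181 and 0.141), the 2 mice at the outer ends.

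Klf2 was at 93.6 and 69.1 CPM in stimulated control cells and at 70.2 and 114 CPM in stimulated CtslΔTEC cells. The genotypes overlapped, and its log2 fold change was 0.19 ± 0.31 (edgeR adjusted p = 0.778). Klf3 overlapped likewise, at 49.0 and 28.2 CPM against 21.4 and 39.2 CPM (log2 fold change -0.31 ± 0.25, edgeR adjusted p = 0.512). Klf6 was at 64.9 to 84.7 CPM in all 4 libraries. Klf13 and Cd69 did not overlap between genotypes, yet neither passed. Klf13 was at 179.5 and 186 CPM in control against 173 and 149 CPM in CtslΔTEC cells (log2 fold change -0.19 ± 0.13, edgeR adjusted p = 0.442). Cd69 was at 2764 and 2670 CPM against 3378 and 3279 CPM (log2 fold change 0.29 ± 0.18, edgeR adjusted p = 0.355).

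Whether the genotype difference itself changed with stimulation was tested as an interaction. Of the 9 genes 0 were called in edgeR and 0 in DESeq2, beside 6.01% of 14241 genes (1.13% higher and 4.88% lower). At an unadjusted p under 0.05 there were 2, Klf2 (interaction 0.90 ± 0.37 on the log2 scale, edgeR adjusted p = 0.232) and Klf13 (-0.38 ± 0.16, edgeR adjusted p = 0.240). For S1pr1, S1pr4 and Il7r the interaction was -0.54 ± 0.34, -0.61 ± 0.33 and -0.64 ± 0.35, so the lower levels in stimulated CtslΔTEC cells were not shown to differ from those in unstimulated cells. Klf2 passed without unstimulated CtslΔTEC mouse 1 (1.10, edgeR adjusted p = 0.0539), the mouse with the highest Klf2 of its group, and S1pr4 without stimulated CtslΔTEC mouse 7 (-1.245, edgeR adjusted p = 0.0662).

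The third comparison followed the genes from unstimulated to stimulated cells within each genotype. In control cells 7 of the 9 genes fell and Cd69 rose, beside 34.8% of genes lower and 32.9% higher. In CtslΔTEC cells the count was also 7 lower and 1 higher, beside 38.2% lower and 32.9% higher. Most genes tested were called in both responses, so the number of genes that changed among the 9 carries little by itself, and the sizes are given instead. The median log2 fold change of the 9 genes was -1.69 in control and -1.83 in CtslΔTEC cells, beside 0.009 and -0.064 over all genes.

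**Figure D3:**
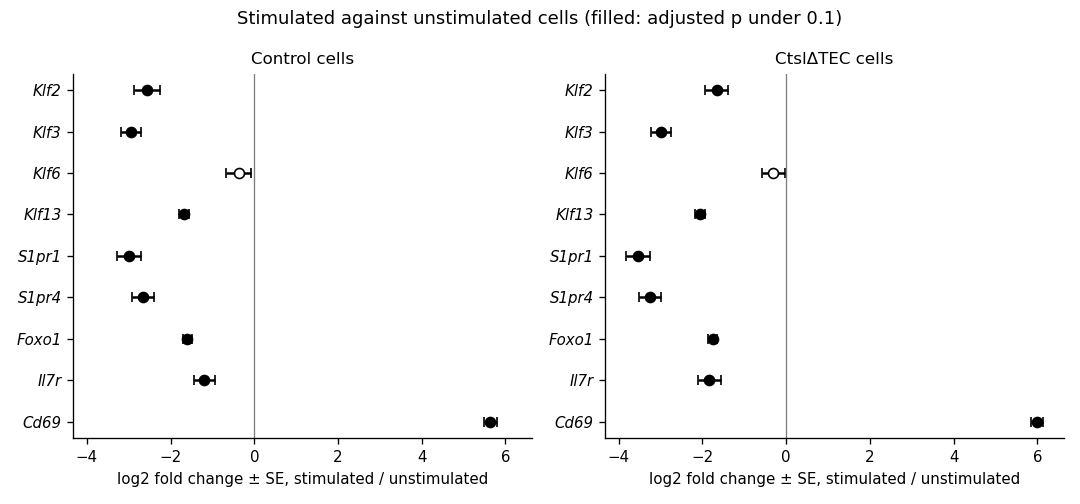
Log2 fold change of stimulated against unstimulated cells (horizontal axis, points with SE bars) for the 9 genes in control (left) and CtslΔTEC cells (right), filled where the edgeR adjusted p is under 0.1. Cd69 lies far to the right, at 5.64 and 5.99, and every other gene lies left of 0, with Klf6 alone open.

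Cd69, the early activation gene, rose 49.9-fold in control cells (log2 fold change 5.64 ± 0.16, edgeR adjusted p = 1.57e-12) and 63.4-fold in CtslΔTEC cells (5.99 ± 0.15, edgeR adjusted p = 1.75e-13). Per length it then led the 9 genes, at 2568 ± 95.1 TPM in control and 3135 ± 46.0 TPM in CtslΔTEC cells (n = 2 each). As a check of the stimulus, Myc was at 990 to 1372 CPM in the 4 stimulated libraries against 64.1 to 88.7 CPM in the unstimulated ones. Il2, of the same list of activation genes, was at 50.7 to 54.4 CPM in stimulated control but at 3.07 to 5.75 CPM in stimulated CtslΔTEC cells (log2 fold change -3.55 ± 0.34, edgeR adjusted p = 5.86e-05). The rest of that list, Myc, Nr4a1, Egr2, Irf4 and Tnfrsf9, was not called between the stimulated genotypes.

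S1pr1 showed the steepest fall in both genotypes, 7.98-fold in control cells (log2 fold change -2.996 ± 0.281) and 11.6-fold in CtslΔTEC cells (-3.54 ± 0.29). Klf3 fell 7.67-fold and 7.93-fold, S1pr4 6.28-fold and 9.56-fold, and Klf2 5.91-fold and 3.16-fold, each in control and then in CtslΔTEC cells. Foxo1 (3.04-fold and 3.37-fold), Klf13 (3.22-fold and 4.19-fold) and Il7r (2.29-fold and 3.57-fold) fell too, in control cells by less than the other 4 genes. The edgeR adjusted p of these 7 genes ranged up to 0.000736 in control cells, for Il7r, and up to 8.45e-05 in CtslΔTEC cells, for Klf2. Klf6 was the exception, with log2 fold changes of -0.38 ± 0.295 and -0.30 ± 0.28 that did not pass (edgeR adjusted p = 0.285 and 0.362). The called responses of these 7 genes and of Cd69 kept their direction and their call in each alternative tried.

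After stimulation Klf2 stayed the most abundant of the other 8 genes per length, at 60.8 ± 8.47 TPM in control and 69.4 ± 23.3 TPM in CtslΔTEC cells, and its ranges lay above those of the next gene in both. Il7r was last in stimulated CtslΔTEC cells, at 4.43 ± 1.18 TPM, which rests on 155 and 159 estimated counts in the 2 libraries. In control cells Il7r (15.7 ± 2.74 TPM) and Klf3 (15.01 ± 1.01 TPM) shared the last places with overlapping ranges.

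Gene sums can hide a change in transcripts. Klf2, S1pr1, S1pr4 and Foxo1 have 1 transcript each in the tables, and 10 transcripts of Klf3, Klf6, Cd69 and Il7r made up at least 5% of their gene's TPM in unstimulated cells, in genes with at least 2 such transcripts, and were tested (two-sided exact permutation test over all splits into 5 and 4 mice, Benjamini-Hochberg over 10). Of these, 1 passed, Klf3-207, a 298-base transcript annotated as a target of nonsense-mediated decay, at 15.4 ± 1.04% of Klf3 TPM in CtslΔTEC (n = 5) and 10.4 ± 2.30% in control cells (n = 4). Its exact permutation p was 0.0079, the smallest these splits allow, and 0.0794 adjusted. By estimated counts it held 0.16 to 0.57% of Klf3, below the 5% minimum, since TPM weights a short transcript up, so no transcript was called on that scale. The main Klf3 transcript, Klf3-201, which has the full coding sequence of 1032 bases, was at 63.5 ± 8.75% and 68.3 ± 6.76% of TPM (exact permutation adjusted p = 0.860).

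**Figure D4:**
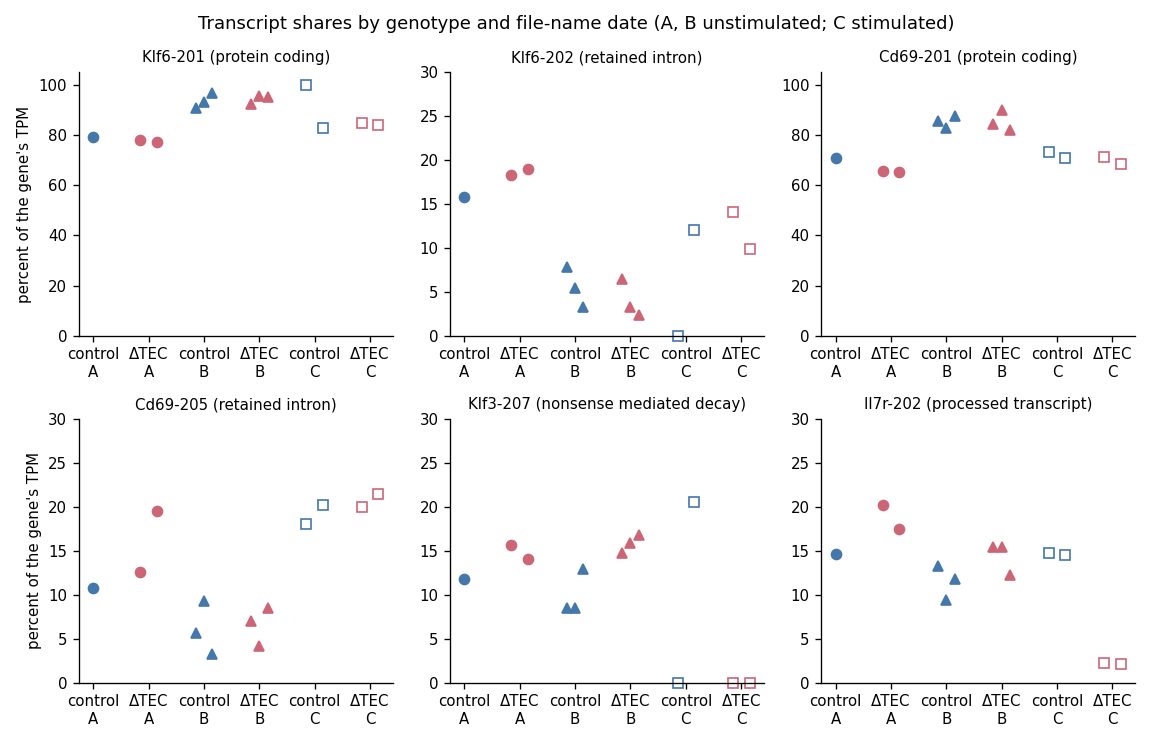
Percent of the gene's TPM held by 6 transcripts of Klf6, Cd69, Klf3 and Il7r, with 1 point per library, by genotype and file-name date (A and B unstimulated, C stimulated). The Klf6 and Cd69 transcripts separate dates A and B in both genotypes, with Klf6-201 at 77.3 to 79.4% in date A and 90.9 to 96.7% in date B.

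The file-name date went with transcript shares in both genotypes. The 3 libraries of date A did not overlap with the 6 of date B in the tested transcripts of Klf6 and Cd69. How often transcripts of other genes separate by date was not measured. Cd69-201, the full-length coding transcript, was at 65.1 to 71.0% of Cd69 TPM in date A and 82.0 to 89.8% in date B, and the retained-intron transcript Cd69-205 at 10.8 to 19.6% and 3.29 to 9.32%. Klf6-202, also a retained-intron form, was at 15.8 to 19.0% and 2.38 to 7.85%. Date A holds both genotypes, so this split runs across them. In stimulated cells the processed transcript Il7r-202 was at 2.06 and 2.19% of Il7r TPM in CtslΔTEC and at 14.5 and 14.7% in control cells, values without a test. By counts it held 0.82 and 0.86% of the 155 and 159 Il7r counts of the CtslΔTEC libraries, so each of these rests on under 2 estimated counts.

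Related genes were counted from lists chosen by name. The counts stand beside 8.36% lower and 6.42% higher of all genes in unstimulated cells and 10.6% lower and 2.77% higher in stimulated cells, and 1 or 2 called genes in a list of 8 to 17 are near that background and are given as values only. Of 6 homing receptors, 3 were lower and 1 higher in unstimulated CtslΔTEC cells. Ccr7, which guides naive T cells into lymph nodes and depends on FOXO1, had a log2 fold change of -0.37 ± 0.07 (edgeR adjusted p = 0.00739). Ccr4, a chemokine receptor of medullary migration, was lower too (-1.42 ± 0.19, edgeR adjusted p = 0.000498), and Itgb7, an integrin chain of gut homing, by -0.45 ± 0.08 (edgeR adjusted p = 0.00346). Ccr9, which marks earlier thymocytes and gut-homing cells, was higher (0.96 ± 0.12, edgeR adjusted p = 0.000301). The same counts, 3 lower and 1 higher, were found after stimulation, where Itgb7 (-1.05 ± 0.14), Ccr4 (-1.19 ± 0.24) and Ccr9 (0.96 ± 0.22) had the smallest p.

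**Figure D5:**
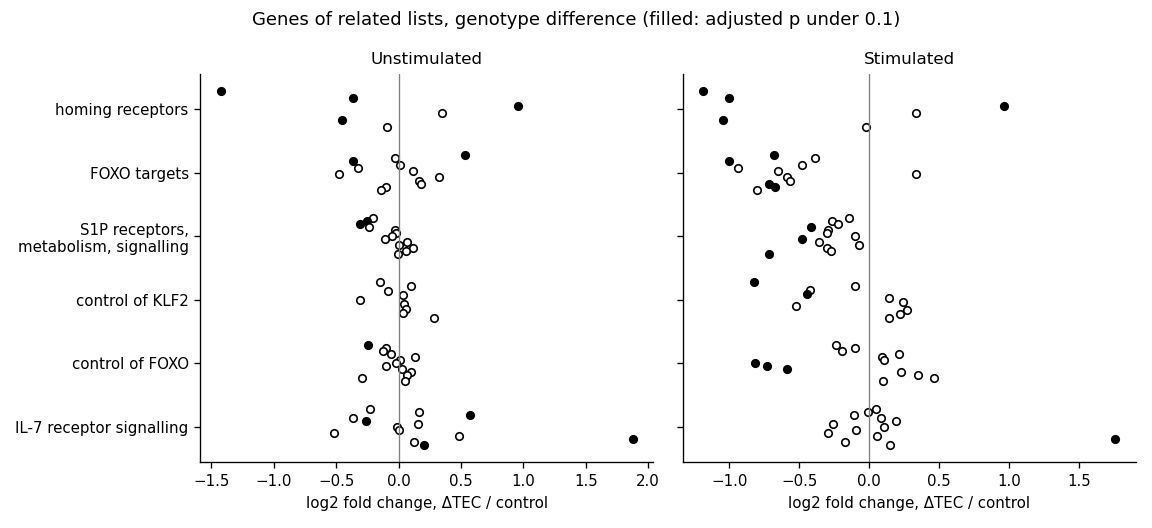
Log2 fold change of CtslΔTEC against control cells (horizontal axis) for the genes of 6 related lists, with 1 point per gene, filled where the edgeR adjusted p is under 0.1, in unstimulated (left) and stimulated cells (right). Of the 12 FOXO target genes, 1 lower and 1 higher are filled in unstimulated and 4 lower in stimulated cells.

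Among 12 FOXO targets, a list that shares Ccr7 with the homing receptors, 1 was lower (Ccr7) and 1 was higher in unstimulated cells. The higher one was Bcl2l11, which encodes the pro-apoptotic protein BIM (0.53 ± 0.08, edgeR adjusted p = 0.00142). In stimulated cells 4 were lower and 0 higher, with Bcl2l11 now lower (-0.68 ± 0.13, edgeR adjusted p = 0.00451), beside Ccr7 (-1.005 ± 0.235) and the stress-response gene Sesn1 (-0.72 ± 0.20). Both responses lowered 10 of the 12, beside 34.8% and 38.2% of all genes lower in control and CtslΔTEC cells, among them the metabolic regulator Txnip, at -4.05 ± 0.32 in control and -4.72 ± 0.33 in CtslΔTEC cells. Of the 3 other FOXO genes 2 were tested, and both moved with stimulation as Foxo1 did. Foxo3 had responses of -1.70 ± 0.09 and -1.96 ± 0.09, and Foxo4 of -2.07 ± 0.14 and -2.73 ± 0.14, and between genotypes Foxo4 was lower in stimulated cells (-0.645 ± 0.158, edgeR adjusted p = 0.0193).

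Of 13 genes of PI3K and AKT signalling that control FOXO proteins, Akt1 was the 1 lower in unstimulated CtslΔTEC cells (-0.245 ± 0.081, edgeR adjusted p = 0.081). In stimulated cells 3 were lower, the PI3K subunits Pik3cd (-0.82 ± 0.15), Pik3cg (-0.73 ± 0.17) and Pik3r1 (-0.59 ± 0.19). Of 10 genes that control KLF2, which include the MEKK3, MEK5 and ERK5 kinases and the MEF2 factors, 0 of the 9 tested were called between unstimulated genotypes in edgeR, with Mapk7 and Wwp1 at an unadjusted p under 0.05 (log2 fold changes of -0.31 ± 0.14 and 0.28 ± 0.13). Hdac5, a histone deacetylase that represses MEF2 (-0.82 ± 0.16, edgeR adjusted p = 0.00511), and Map3k3, which encodes MEKK3 (-0.447 ± 0.095, edgeR adjusted p = 0.00896), were lower in stimulated CtslΔTEC cells.

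Of 20 genes of S1P receptors, S1P metabolism and the signal from them to the cytoskeleton, 13 were tested. In unstimulated CtslΔTEC cells 2 were lower and 0 higher, both regulators of actin needed for lymphocyte egress, Dock2 (-0.306 ± 0.065, edgeR adjusted p = 0.0106) and Coro1a (-0.255 ± 0.075, edgeR adjusted p = 0.0527). In stimulated cells 3 were lower, the kinase gene Stk4 (-0.72 ± 0.12), the GTPase gene Rac2 (-0.48 ± 0.10) and the G protein gene Gnai2 (-0.41 ± 0.13). S1pr2, a receptor that restrains migration, went against S1pr1 and S1pr4 on stimulation, with a rise of 2.59 ± 0.11 in control and 2.17 ± 0.105 in CtslΔTEC cells on the log2 scale.

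Beside the lower Il7r, 3 of 13 genes of IL-7 receptor signalling were higher and 1 lower in unstimulated CtslΔTEC cells. Socs3, an inhibitor of cytokine signalling, was higher in unstimulated (1.88 ± 0.12, edgeR adjusted p = 4.03e-06) and in stimulated cells (1.76 ± 0.32, edgeR adjusted p = 0.00359). Il2rg, the partner chain of the IL-7 receptor, was lower (-0.26 ± 0.07, edgeR adjusted p = 0.0441) and Stat5b, a transcription factor below it, higher (0.20 ± 0.06, edgeR adjusted p = 0.0512). Of 5 transcriptional regulators of Il7r, Gfi1, which represses it, was 1.49 ± 0.09 higher on the log2 scale in unstimulated CtslΔTEC cells (edgeR adjusted p = 1.2e-06), and Runx1 was lower (-0.28 ± 0.08, edgeR adjusted p = 0.0392). Among 17 quiescence genes 2 were higher (the ubiquitin ligase gene Peli1 at 0.33 ± 0.10 and the antiproliferative gene Btg1 at 0.30 ± 0.09) and Runx1 lower. The remaining KLF genes, 8 tested of 13, gave 1 higher (Klf7, 0.34 ± 0.10, edgeR adjusted p = 0.0442) and 1 lower (Klf16, -0.41 ± 0.12, edgeR adjusted p = 0.0468). In stimulated cells the quiescence list gave 3 higher and 3 lower, the latter led by the T cell transcription factor gene Ets1 (-1.40 ± 0.19, edgeR adjusted p = 0.000496), and the remaining KLF genes 0 higher and 0 lower of 8. Of the 5 regulators of Il7r, Gfi1 (0.42 ± 0.15, edgeR adjusted p = 0.0982) and Runx1 (0.46 ± 0.12, edgeR adjusted p = 0.0268) were higher in these stimulated cells. Ets1, in both lists, was lower.

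List medians of the log2 fold change in unstimulated and stimulated cells, beside 0.01 and -0.055 over all genes, were -0.23 and -0.51 for the homing receptors. They were -0.012 and -0.66 for the FOXO targets, -0.03 and -0.295 for the S1P list, and 0.04 and 0.02 for the genes that control KLF2. For the genes that control FOXO proteins they were -0.02 and 0.09, and for IL-7 receptor signalling 0.13 and 0.05.

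The genes most like each of the 9 were taken by Pearson's r of log2 CPM over the 13 libraries among 10333 genes, as a description. All points share the contrast between stimulated and unstimulated cells. Ccr7 was first for S1pr4 (r = 0.994) and next after Pycard and Gvin1 for S1pr1 (r = 0.992). Foxo1 was most like Add1 (r = 0.993), Klf2 like Bcat2 (r = 0.981) and Klf3 like Retreg3 (r = 0.995). Klf13 was most like Cep250 (r = 0.996) and Cd69 like Zfp52 (r = 0.998). Il7r, with Abcb9 at r = 0.969, and Klf6, with Arl4d at r = 0.925, had the least close neighbours.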

How the data were processed

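RNA was sequenced from 13 libraries, 1 per mouse. The authors quantified paired reads with kallisto 0.48 (per the submitters' processing notes) against Ensembl transcripts, and deposited for each library the estimated counts, TPM and effective lengths of 117497 transcripts. Estimated counts are model-based shares of reads and need not be whole. Here transcripts were joined to genes by identifier in GENCODE M21 (GRCm38), an older annotation than the authors'; 1100 transcripts had no gene and held at most 0.461% of a library's counts. Gene sums of estimated counts were rounded and tested with edgeR 4.0.16 (R 4.3.3; TMM, default low-count filter, quasi-likelihood, Benjamini-Hochberg over all genes tested, adjusted p under 0.1): the 9 unstimulated libraries alone, and the other comparisons in a model of 4 groups. DESeq2 1.42.0, the authors' tool, was an alternative. The steps were tested on simulated data. The p-values of edgeR and DESeq2 weigh each difference against the spread between mice within groups. In the model of 4 groups that spread is estimated over all 13 libraries.

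Groups came from the labels. Genes named beyond the 9 were at most 3 per list and comparison, those with the smallest p among called genes of at least 1 log2 CPM on average, and for likeness the 3 with the highest r. Outside this rule were Mapk7 and Wwp1, not called and given at an unadjusted p, Slfn2 and Tcf7, and the marker genes and genes used as checks. A gene of the related lists and a gene of the marker lists are not reported here and were left out of their counts, medians and sums. The 9 genes, the lists and the tests were chosen with earlier results of these data known. Alternatives covered scaling, filters, threshold, transcript length and type, depth, Y-linked expression, file-name date, a replicate block and leaving out each mouse. Precision rests on the mice, and the deposited estimated counts of the 9 genes ranged upward from 129 (S1pr4 in a stimulated CtslΔTEC library). The labels name polyA RNA, the study's methods rRNA depletion; this was not settled here.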

Additional observations from a re-analysis of the deposited data

Results flagged for a closer look

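The interaction of genotype and stimulation was called for 0 of the 9 genes by edgeR and 0 by DESeq2, with 2 at an unadjusted p under 0.05. In 18 groups of unstimulated values (9 genes in 2 genotypes) 0 had a mouse apart from the rest by Dixon's test on log2 CPM and 1 on CPM, the scale added after seeing the data, where chance flags about 1 in 20. This was Klf2 in CtslΔTEC mouse 1, with a gap of 0.707 of the range on log2 CPM and 0.771 on CPM against a critical value of 0.71.

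Of 95 genes tested in the related lists, 15 had an interaction of genotype and stimulation (edgeR adjusted p under 0.1), 12 below 0 and 3 above, or 15.8% beside 6.01% of all genes. The 13 with the smallest p in their lists are given first, with edgeR adjusted p from 0.00236 for Bcl2l11 to 0.0994 for Il2rg. The interactions below 0 on the log2 scale were Map3k3 -0.48, Hdac5 -0.67, Stk4 -0.71, Itgb7 -0.59, Foxo4 -0.66, Bcl2l11 -1.21, Sesn1 -0.89, Pik3cd -0.79, Ets1 -1.22 and Gfi1 -1.07. Those above 0 were Runx1 0.74, Vsir, a checkpoint gene of the quiescence list, 0.91 and Il2rg 0.46. The 2 others, beyond the 3 per list and so chosen after their values were seen, were Slfn2 -1.02 and Tcf7 -0.75. For Bcl2l11 the difference between genotypes changed sign, from 0.53 in unstimulated to -0.68 in stimulated cells. Runx1 changed sign the other way, from -0.28 to 0.46, and both genes were called in both states.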

How the results depend on the processing

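Over 900 single-gene values under alternatives, 852 kept direction and call, 20 lost and 4 gained a call and 24 changed sign, none of these in a response to stimulation. The count in unstimulated cells fell from 6 to 2 with the Y-linked covariate, and leaving out 1 mouse gave 5 to 6. In stimulated cells that count ran from 2 to 5, and for the interaction from 0 to 1. It stayed at 8 in both responses. Klf2 passed or missed in unstimulated cells at DESeq2 or edgeR adjusted p of 0.00143 to 0.220, and Klf3 at 0.0139 to 0.643. Mouse numbers 1 to 4 occur in both genotypes but did not pair the mice (same-number correlations of -0.159, 0.353, -0.094 and -0.135). With a replicate block over them 4 genes were called and 1056 genes in all, with edgeR adjusted p of 0.134 for Klf2 and 0.252 for Klf3; without the block on the same mice, a fit added after seeing the data, Klf3 had 0.125 and Klf2 was still called at 0.0787. These numbers are those of the sample titles, which differ from the file names for several libraries. Counts over all genes moved from 1943 to 428 with the Y-linked covariate, from 1898 to 1127 in the stimulated libraries alone and to 945 and 1254 without CtslΔTEC mouse 6 or 7 and 966 without control mouse 5, and for the interaction from 856 to 471 at 0.05 and to 334 and 340 without CtslΔTEC mouse 6 or control mouse 5. Of called genes, 43.4% were higher in unstimulated CtslΔTEC cells, 56.8% with library totals alone and 28% with the Y-linked covariate. In stimulated cells 20.8% were higher, and 36.6% with at least 10 counts in every library; for the interaction 18.8%, and 29.4% in DESeq2. With library totals alone the median of all genes in the CtslΔTEC response moved from -0.064 to -0.208. The transcript count fell from 1 to 0 with shares of estimated counts; leaving out a mouse gave 0 throughout, where a lone transcript at the smallest p of the fewer splits cannot pass, and a 10% minimum gave 1.

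Each value that changed sign missed the threshold in both settings. In unstimulated cells Klf6 was at -0.011 with no count filter and -0.081 with the date as a factor, and Cd69 at 0.099 with the Y-linked covariate and 0.005 in the second date alone; leaving out a mouse gave -0.148 to 0.297 for Klf6 and -0.135 to 0.013 for Cd69. In stimulated cells leaving out a mouse gave -0.214 to 0.497 for Klf2, -0.832 to 0.108 for Klf3 (called at -0.832) and -0.117 to 0.266 for Klf6. In the interaction Klf3 was at 0.015 with at least 10 counts in every library and Klf6 at -0.269 with the Y-linked covariate, and leaving out a mouse gave -0.571 to 0.369 for Klf3 and -0.216 to 0.264 for Klf6. The cause was not tested. The stimulated comparisons rest on 2 mice per genotype. Thinning every library to the smallest, of 8085463 counts, left 6, 4, 0, 8 and 8 of the 9 genes called in the 5 comparisons.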
